A study of Capsicum chinense and Capsicum frutescens with 8 samples.

Results

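The fruit of one cultivated pepper, Capsicum frutescens Accession 4, was set against the stem, flower and leaf of the same accession by its small RNAs. The fruit entered as 1 library and the other organs as 3 libraries, 1 each, of 8 libraries in the series. The remaining 4 libraries are the same organs of a second pepper, Bhut jolokia (C. chinense), and serve here only as a set that the choice of families did not use. All plants were grown from seed in a glasshouse, with no treatment or mutant. The fruit sample joined stages between 5 and 60 days post anthesis (the opening of the flower), from young fruit through the breaker stage, when colour turns, to mature fruit. The leaf sample was of fully expanded leaves, the flower sample of buds of mixed size and age, and the stem came from mature plants. Each library was made from RNA that joined 3 biological replicates, so each organ is a single value, no spread between plants is known, and no test between organs was possible. The smallest p that an exact permutation of 1 library against 3 can give is 0.25. No miRNA marks a pepper organ with certainty, so the organ labels could not be checked against markers.

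Plant miRNAs are short RNAs cut by a Dicer-like enzyme from a folded precursor as a duplex of a 5p and a 3p arm. One arm, the guide, is loaded into an Argonaute protein and directs cleavage or silencing of matching mRNAs. The other, the passenger or second arm, is usually lost. Conserved families control growth regulators, hormone receptors and the small RNA machinery itself, while families known from the nightshades often match disease resistance genes.

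Reads were listed under the names of known plant miRNAs (entries such as pta-miR396, where the prefix stands for the species of the name), with 1 printed sequence for each entry and library. The printed sequences often run past mature length, and the extension differs between libraries around a core that they share. The entries with most fruit reads of miR166, miR396, miR393 and miR403 are shown because they carry the main results, and the extension of miR166 shows why shares were summed by name and not read as mature forms. Capitals mark the longest stretch found in every C. frutescens library that lists the entry, 5′ to 3′, as deposited by the authors.
pta-miR166a fruit: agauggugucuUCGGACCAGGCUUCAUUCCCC
pta-miR166a stem: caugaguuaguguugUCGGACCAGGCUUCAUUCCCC
pta-miR166a flower: uaguguugUCGGACCAGGCUUCAUUCCCC
pta-miR166a leaf: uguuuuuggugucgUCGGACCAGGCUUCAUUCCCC
pta-miR396 fruit: UUCCACAGCUUUCUUGAACUUcuu
pta-miR396 stem: UUCCACAGCUUUCUUGAACUUuuuuu
pta-miR396 flower: UUCCACAGCUUUCUUGAACUUcuuuu
pta-miR396 leaf: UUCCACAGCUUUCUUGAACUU
ath-miR396a-3p fruit: uuuugggGUUCAAUAAAGCUGUGGGAAG
gma-miR393c-3p fruit: auugauCAUGCUAUCCCUUUGGACU
gma-miR393c-3p stem: auCAUGCUAUCCCUUUGGACU
gma-miR393c-3p flower: CAUGCUAUCCCUUUGGACUccucc
ath-miR403-3p fruit: UUAGAUUCACGCACAAACUCGuu
ath-miR403-3p leaf: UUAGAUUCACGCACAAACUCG

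The core of pta-miR166a measures 21 nt in all 4 libraries, after 11 bases in fruit, 15 in stem, 8 in flower and 14 in leaf. Among 741 entries listed in fruit and in another C. frutescens organ, 388 had printed sequences that matched on the same strand over 16 or more bases, and these held 98.4% of the fruit reads. Another 82 matched only as the reverse complement, and they held 1416 fruit reads, led by cpa-miR171d with 811. The remaining 271 did not match. Genome positions were not used here.

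The conserved entries held 937585 reads in fruit, 1132791 in stem, 412734 in flower and 246508 in leaf. Entries with a printed sequence over 24 nt took 85.9% of these reads in fruit, against 98.3% in stem, 96.2% in flower and 84.9% in leaf. The number of reads sequenced is not known, so every share below is a share of the listed conserved reads, and every interval covers counting error only. In RNA of whole organs, fewer cells of a type and less RNA per cell cannot be told apart.

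The fruit library was made mostly of the families that lead the other organs too. miR166, which directs cleavage of the HD-ZIP III transcription factors of shoot and vascular patterning, took 60.5% of fruit reads, against 76.6% in stem, 42.5% in flower and 66.8% in leaf. miR482, which matches the coding sequence of NB-LRR resistance genes, took 13.6% in fruit, against 8.86% in stem, 20.7% in flower and 13.8% in leaf. The fruit value of both lies within the range of the other organs. miR6300, an entry whose sequence has been described as a tRNA fragment, took 8.07% in fruit, against 8.28% in stem, 4.14% in flower and 8.87% in leaf. The next families by fruit share, miR396 and miR162, were far above the other organs. miR396 took 4.76% and miR162 took 2.78% in fruit, while neither passed 0.201% in any other organ. miR159, which acts on GAMYB-like transcription factors, took 2.47% in fruit, against 0.603% in stem, 0.0545% in flower and 0.698% in leaf. miR168 (1.06%), miR398 (0.992%), miR393 (0.927%) and miR894 (0.652%) complete the 10 families with the highest fruit share.

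**Figure D1:**
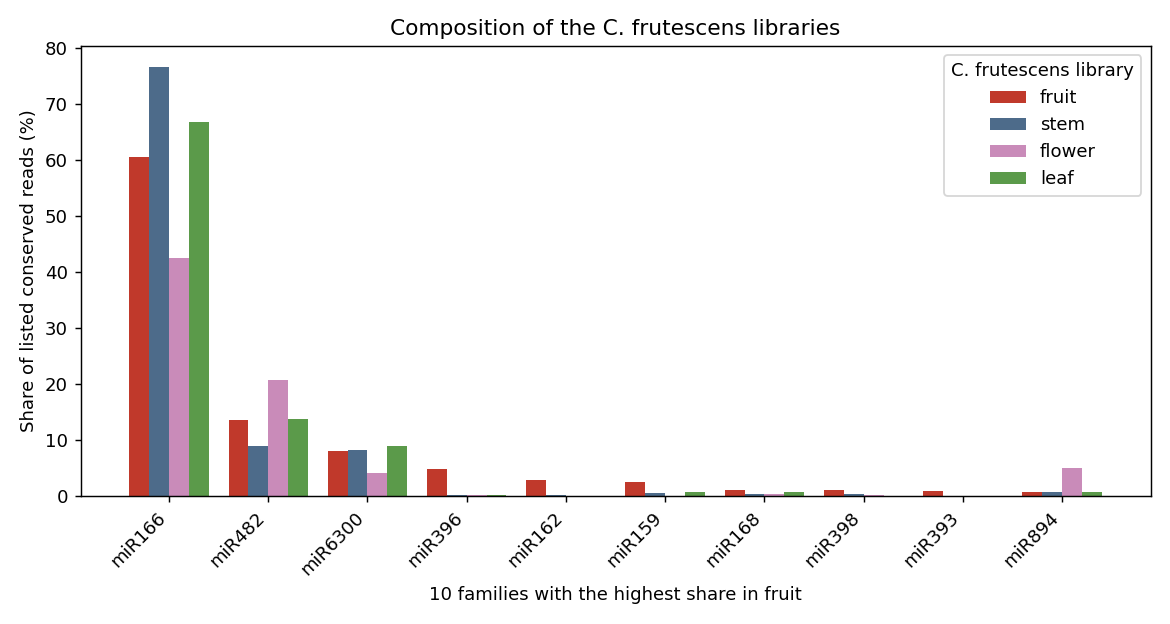
Share of the listed conserved reads (%, linear axis from 0) of the 10 families with the highest share in C. frutescens fruit, in the fruit, stem, flower and leaf libraries, 1 library each. miR166, miR482 and miR6300 lead fruit, stem and leaf, while in flower miR3711 (24.7%, not drawn) is second and miR894 (4.98%) passes miR6300 (4.14%), and miR396 (4.76%) and miR162 (2.78%) stand out in fruit.

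A family was called apart in fruit where its share lay 4-fold or more outside the range of the other 3 organs, with 50 or more reads over the 4 libraries. Of 65 families with that many reads, 16 were higher in fruit (24.6%) and 3 were lower (4.62%). In all, 31 families were above every other organ, 15 were below every other organ and 19 lay within their range. Libraries at 0 were set to 3 reads for these counts, and miR5723 counts as below only by that floor. Taking each C. frutescens organ in turn against the other 3 by the same rule set 19 of 65 families (29.2%) apart in fruit. The same count was 2 (3.08%) for stem, 9 (13.8%) for flower and 3 (4.62%) for leaf. The minimum of 50 includes the reads of the organ in question, so a family can pass it through that organ alone. In fruit, miR2916 did so with 4 reads in the other organs together, miR8036 with 1, miR7717 with 6 and miR7758 with 10. So did miR827, miR8019, miR6024, miR1446, miR6023 and miR6026, with 11 to 45 reads there. Of the 16 higher families, only miR396, miR162, miR393, miR403, miR170 and miR6022 had 50 or more reads outside fruit. The count of higher families in fruit therefore rests largely on this filter. The 16 higher families together made up 10.2% of fruit reads, against 0.411% of stem, 0.162% of flower and 0.229% of leaf reads. With miR166 left out of every total, 16 of 64 families were higher (25%) and 4 were lower (6.25%), and 15 of the 16 higher families remained. The exception was miR6026, and miR164 was added. With only entries whose printed sequence has 20 to 24 bases, 6 of 44 families were higher, 5 of them among the 16, and 2 were lower, miR5300 and miR6025, neither of them among the 3. The higher calls lost in that setting were miR162, miR393, miR170, miR2916, miR6022, miR6023, miR6026, miR1446, miR7717, miR7758 and miR8019. The count of lower families was 7 with stem left out and 5 with flower left out, against 3 with all organs. The median fold over the middle one of the other organs was 0.78 on the log2 scale over the 65 families, and 0.53 without miR166.

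**Figure D2:**
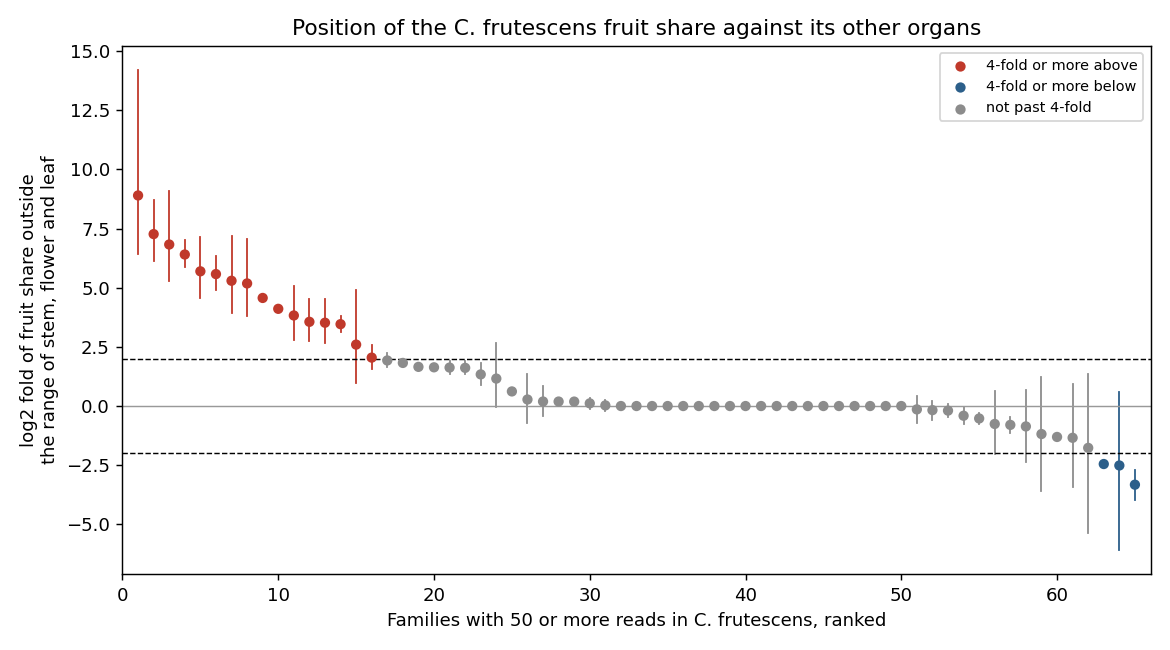
Fold of the C. frutescens fruit share outside the range of stem, flower and leaf (log2 scale) for the 65 families with 50 or more reads, ranked, with families inside the range at 0. Bars are 95% counting intervals and dashed lines mark 4-fold, and 16 families lie above the upper line and 3 below the lower one.

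The families of the small RNA machinery were all 3 above every other organ, and 2 of the 3 passed 4-fold, against 31 of 65 families above every other organ and 24.6% past 4-fold over all. miR162, which directs cleavage of the mRNA of the miRNA-processing enzyme DCL1 in Arabidopsis, had 26061 reads in fruit, 1826 in stem, 125 in flower and 116 in leaf. Its share was 2.78% in fruit, against 0.161% in stem, 0.0303% in flower and 0.0471% in leaf. Fruit stood 17.2-fold over the highest of these, stem (95% interval 16.4 to 18.1), and 10.2-fold without miR166. On the log2 scale the fold was 4.11, against 3.25 with TMM scaling and 5.88 with stem left out. miR403, which acts on the antiviral Argonaute AGO2 in Arabidopsis, had 3086 reads in fruit, 71 in stem, 6 in flower and 17 in leaf. That is 0.329% of fruit reads, against 0.00627%, 0.00145% and 0.0069% in stem, flower and leaf, and 47.7-fold over leaf (29.8 to 82) or 31.2-fold over stem, then the highest, without miR166. miR168, which acts on AGO1, took 1.06% in fruit, against 0.414% in stem, 0.367% in flower and 0.691% in leaf, which is 1.53-fold over leaf (1.46 to 1.62) and short of the rule. The median fold over the middle organ was 5.71 (log2) for these 3 families, against 0.78 for all 65.

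Of the families that act on growth and hormone pathways, miR396 and miR393 were the most abundant apart in fruit. miR396, which limits the GRF growth regulators, had 44636 reads in fruit, 2274 in stem, 482 in flower and 284 in leaf. Its share of 4.76% in fruit stood against 0.201% in stem, 0.117% in flower and 0.115% in leaf, 23.7-fold over stem (22.7 to 24.7), and 14.1-fold without miR166. On the log2 scale the fold was 4.57, against 3.71 with TMM scaling and 5.35 with stem left out. miR393, whose guide acts on the TIR1 and AFB auxin receptors, had 8696 reads in fruit, 38 in stem, 14 in flower and 27 in leaf. The share of 0.927% in fruit was 84.7-fold over the 0.011% of leaf (58.2 to 129). Of the fruit reads 8661 (99.6%) were named for the 3p arm, which is not the guide, and without them the family was not called, at a log2 fold of 0.49 over leaf. The 3p arm also held most miR393 reads in stem (86.8%), flower (85.7%) and leaf (74.1%). miR170, whose 3p arm acts on GRAS transcription factors of the HAM type, was listed through its 5p arm alone, with 3474 reads in fruit, 316 in stem, 20 in flower and 83 in leaf. Its fruit share was 11.0-fold over leaf (8.85 to 13.9).

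In the auxin list (miR160, miR164, miR167, miR390 and miR393) 1 of 5 families was called, close to the 24.6% over all families, and 4 of 5 lay above every other organ, against 31 of 65. miR164, whose guide limits NAC transcription factors of organ boundaries, had 904 reads in fruit, 124 in stem, 130 in flower and 12 in leaf, 3.06-fold over flower (2.54 to 3.71) and 4.46-fold without miR166. Of its fruit reads 747 (82.6%) were named for the 3p arm, which is not the guide. The other miR164 reads numbered 157 in fruit, 92 in stem, 110 in flower and 9 in leaf. miR390, which triggers the tasiRNAs against auxin response factors, took 0.083% in fruit, against 0.0727% in stem, 0.0124% in flower and 0.0312% in leaf, and lay under stem without miR166, at 0.677 of its share. miR160, which acts on auxin response factors, took 0.118% in fruit and lay within the range of 0.0636% to 0.18% of the other organs. The median fold over the middle organ was 1.41 (log2). In the list of other development families 2 of 7 were called, miR170 and miR396, again close to the 24.6% over all, with a median of 0.28, and miR171, close in sequence to miR170, missed the rule at 3.80-fold over leaf (3.11 to 4.68).

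None of the 4 measured families of phase change and flower development was called. miR159 was above every other organ at 3.53-fold over leaf (3.36 to 3.71). miR319, a regulator of TCP transcription factors, took 0.0528% in fruit, against 0.259% in stem, 0.149% in flower and 0.00527% in leaf. miR156, which holds plants in the juvenile phase through SPL factors, had 302 reads in fruit, 437 in stem, 19 in flower and 10 in leaf, and miR172, which acts on AP2-like factors, had 52, 67, 6 and 4 reads. All 3 lay within the range of the other organs. Copper families, which act on mRNAs of copper proteins, were above every other organ in 3 of 3 cases, against 31 of 65 over all families, with none past 4-fold, against 16 of 65. miR398 took 0.992% in fruit, against 0.315% in stem, 0.0957% in flower and 0.0892% in leaf, and was 3.15-fold over stem (3.03 to 3.27). miR408 was 1.14-fold over stem (1.03 to 1.26), and lay under stem without miR166 at 0.676 of its share. miR397 was 1.14-fold over flower, with an interval of 0.751 to 1.77 that spans equality.

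Among families of nutrient supply, miR827, whose guide acts on SPX-domain proteins of phosphate transport, had 597 reads in fruit, 5 in stem, 2 in flower and 4 in leaf, 39.2-fold over leaf (15.2 to 144). Of the fruit reads 391 (65.5%) were named for the 5p arm, which is not the guide. Of these stu-miR827-5p held 390, and its stem sequence was printed as the reverse complement. Without second-arm entries the log2 fold of miR827 over the highest organ was 4.27, against 5.29 with them. miR399, another phosphate family, had 51 reads in fruit, 8 in stem, 4 in flower and 6 in leaf, 2.23-fold over leaf with an interval that includes 1 (0.959 to 6.37). The other 2 listed families had under 50 reads. miR858, which acts on MYB regulators of phenylpropanoid synthesis, had 1514 reads in fruit, 419 in stem, 2 in flower and 129 in leaf, 3.09-fold over leaf (2.58 to 3.72). miR828, its partner on MYB genes, had 11 reads in fruit and none in stem, flower or leaf.

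Of 19 families listed as resistance gene regulators or first named from nightshades, 12 had 50 or more reads, of which 5 were higher in fruit, none was lower, 7 were above every other organ and 2 were below. Over all 65 families the same counts were 16 higher, 3 lower, 31 above and 15 below. Of the 5 higher families, only miR6022 had 50 or more reads outside fruit, and the others passed the minimum through their fruit reads. miR6023, which acts on receptor-like resistance genes in tomato, had 3514 reads in fruit, 14 in stem, 1 in flower and 6 in leaf, and its fruit share of 0.375% was 154-fold over leaf (70.7 to 420). miR6022, which shares that target class, had 538 reads in fruit, 31 in stem, 9 in flower and 12 in leaf, 11.8-fold over leaf (6.69 to 23). miR6024, a regulator of NB-LRR genes, had 1181 reads in fruit, 5 in stem, 2 in flower and 6 in leaf, 51.8-fold over leaf (23.7 to 141). All 3 were listed in each organ, and the other organs together held 21 reads of miR6023, 52 of miR6022 and 13 of miR6024. miR1446 had 114 reads in fruit, 12 in stem, 4 in flower and 2 in leaf, 11.5-fold over stem (6.32 to 22.9), and 6.82-fold without miR166. miR6026 had 147 reads in fruit, 43 in stem, 1 in flower and 1 in leaf, 4.13-fold over stem (2.92 to 5.95). This value, the nearest inside the rule, was 2.45-fold without miR166. Of the members with many reads that were not called, miR5300 took 0.148% in fruit, against 0.0712% in stem, 0.0722% in flower and 0.148% in leaf, and miR6027 was above every other organ at 3.11-fold over stem (2.93 to 3.3). miR2118 and miR6025 were the 2 families below every other organ, with 4 and 10 fruit reads. The median fold over the middle organ was 2.12 (log2), against 0.78 for all 65 families. The printed sequences of miR6023 and miR6024-3p, shown as the most abundant of the called members, differ between organs only by bases after the core.
stu-miR6023 fruit: UUCCAUGAAAGGGUUUUUGGAUaag
stu-miR6023 leaf: UUCCAUGAAAGGGUUUUUGGAU
stu-miR6024-3p fruit: UUUUAGCAAGAGUUGUUUUCCCa
stu-miR6024-3p stem: UUUUAGCAAGAGUUGUUUUCCCucu
stu-miR6024-3p leaf: UUUUAGCAAGAGUUGUUUUCCCu

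The remaining families above the rule carry names with no role given here. miR8036 had 1295 reads in fruit, 1 in stem and none in flower or leaf. Against the share that 3 reads would give in leaf, its fruit share was at least 113-fold higher. miR7717 had 69 reads in fruit, 6 in stem and none in flower or leaf, at least 6.05-fold higher by the same floor, with a lower interval limit of 1.98 below the rule. miR8019 had 552 reads in fruit, 6 in stem, 1 in flower and 4 in leaf, 36.3-fold over leaf (14.1 to 134). The sequences printed under stu-miR8019-3p share an unbroken stretch of 13 bases over the 4 organs. miR7758 had 94 reads in fruit, 8 in stem, 1 in flower and 1 in leaf, 14.2-fold over stem (6.92 to 33.8) and 8.43-fold without miR166, and its main entry is one of those printed on opposite strands. For 14 of the 16 higher families the lower interval limit was itself 4-fold or more. The highest other organ sets these folds. With leaf left out, the log2 fold was 8.10 for miR393 (6.40 with leaf), 8.02 for miR6024 (5.69), 7.04 for miR827 (5.29) and 6.80 for miR8019 (5.18).

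**Figure D3:**
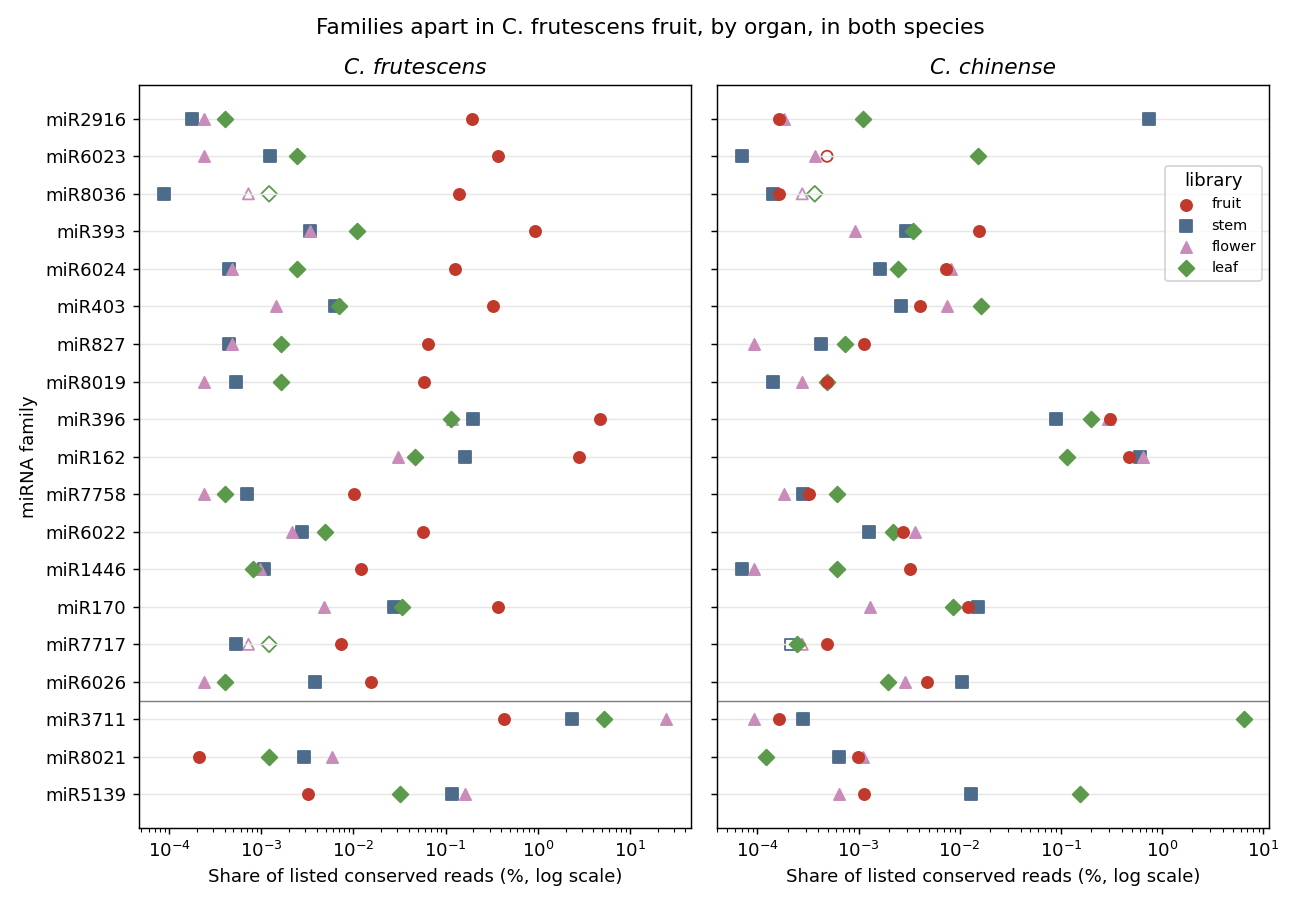
Share of the listed conserved reads (%, log axis) of the 16 families higher and, under the line, the 3 families lower in C. frutescens fruit, in fruit, stem, flower and leaf of C. frutescens (left) and C. chinense (right). Open symbols mark 0 reads, drawn at 3 reads, and the fruit points stand clear of the other organs on the left, while on the right miR393 and miR1446 are the families whose fruit point lies 4-fold or more above the others.

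Entries that have been described as pieces of rRNA or tRNA behaved unevenly. Over 7 such families the summed share was 9.05% in fruit, against 9.33% in stem, 9.78% in flower and 10.7% in leaf, so the total of these 7 hardly differed. That total leaves out miR3711, described below, which took 0.435% in fruit, 2.38% in stem, 24.7% in flower and 5.24% in leaf. Among the 7, miR2916, described as an rRNA piece, had 1816 reads in fruit, 2 in stem, 1 in flower and 1 in leaf. Its fruit share of 0.194% was 477 times that of leaf, with an interval of 85.6 to 18869 that reflects the single leaf read. miR5139 was lower in fruit, with 30 reads, against 1314 in stem, 673 in flower and 79 in leaf, and the fruit share lay 10.0-fold under the lowest of these, leaf (6.5 to 15.8). miR894 took 0.652% in fruit, against 0.698% in stem, 4.98% in flower and 0.63% in leaf.

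The other 2 lower families were miR3711 and miR8021. miR3711 had 4078 reads in fruit, 26942 in stem, 102023 in flower and 12915 in leaf. Its share was 0.435% in fruit, against 2.38% in stem, 24.7% in flower and 5.24% in leaf, 5.47-fold under stem (5.29 to 5.65), which is -2.45 on the log2 scale, against -3.20 without miR166 and -3.59 with stem left out. The printed sequence, shown because it is the second most abundant of flower, ends in CCA, as mature tRNAs do, in every organ. In fruit 2.46% of all conserved entries end so, ppt-miR894 among them.
pab-miR3711 fruit: CGGAGGUUCAGGCCCUCCUUCUAGCGCCA
pab-miR3711 flower: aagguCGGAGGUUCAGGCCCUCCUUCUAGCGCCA
miR8021 had 2 reads in fruit, 33 in stem, 24 in flower and 3 in leaf, and its ratio of 5.71 under leaf has an interval of 0.654 to 68.3 that spans equality. Just short of the rule lay miR5723, miR5077 and miR8175. miR5723 had 2 reads in fruit, 75 in stem and none in flower or leaf. It counts as below every other organ only because libraries at 0 were set to 3 reads. The interval of its ratio, 0.39 to 40.8, spans equality. miR5077 had 6 reads in fruit and 4 in leaf, with an interval that also spans equality (0.526 to 10.7). miR8175 had 739 reads in fruit, 2209 in stem, 1975 in flower and 2685 in leaf. miR8175 was 2.47-fold under stem (2.28 to 2.69), and passed the rule without miR166.

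The same rule was applied to C. chinense, whose fruit library held 613569 conserved reads and which the choice of the 16 families did not use. There 2 of 55 families (3.64%) were higher in fruit than in every other organ, miR156 and miR393, and 0 of 55 (0%) were lower. Of the 16 families higher in C. frutescens fruit, 10 had 50 or more reads in C. chinense. Among the 10, 2 lay above every other C. chinense organ, 7 within their range and 1 below, with libraries at 0 set to the floor of 3 reads. miR6023 counts as within by that floor, with 0 reads in C. chinense fruit, 1 in stem, 4 in flower and 123 in leaf. miR393 had 96 reads in C. chinense fruit, 42 in stem, 10 in flower and 28 in leaf, 4.54-fold over leaf. miR396, with 1898 reads in fruit, 1264 in stem, 3142 in flower and 1612 in leaf, was 1.06-fold over flower. miR1446 was 5.29-fold over the highest other organ, from 20 fruit reads and under the minimum of 50. miR2916 had 1 read in C. chinense fruit and 10490 in stem. The median fold over the middle organ, for families with 50 or more reads in C. frutescens, was 0.20 (log2) in C. chinense. No difference between the species was tested.

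Arms could be compared where an entry name ends in -5p or -3p. Arm-named entries held 10.8% of fruit reads, against 1.12% in stem, 1.26% in flower and 1.73% in leaf, and 0.878% in C. chinense fruit. For 26 families with a known guide arm, entries named for the second arm held 64668 fruit reads (6.90%), against 2970 in stem (0.262%), 645 in flower (0.156%) and 857 in leaf (0.348%). The fruit share was 19.8-fold that of leaf, and 21.1-fold that of stem, the highest of the others without miR166. In C. chinense the same share was 0.287% in fruit, against 0.135% in stem, 0.0613% in flower and 0.162% in leaf, 1.77-fold over leaf. The list of guide arms was drawn up after these totals had been seen, so they are a description, and entries without an arm in their name count as guide.

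Over the 19 families with 50 or more second-arm reads, 11 had a second-arm share of the library at least 4-fold higher in fruit (57.9%). By the share of whole families the count was 16 of 65 (24.6%). The 11 include miR170, which was all second arm in each organ, so its value only repeats the family call. That is nearly so for miR393, whose second arm held 99.6% of the family in fruit and 74.1% to 86.8% in the other organs. miR396, miR162 and miR827 were also called as whole families, so the 2 counts are not independent. The 11 also include miR827 and miR160, which reached 50 second-arm reads only through fruit (391 and 449 reads). The 6 largest, miR396, miR482, miR162, miR166, miR393 and miR159, held 90.5% of the second-arm reads of fruit. Within a family the second arm can be set against the rest where the family has 50 or more reads in each organ, as 10 families do. In 8 of the 10 the second arm took a larger part of the family in fruit than in every other organ, in 1 a smaller part, and in 1 it lay within their range, with 3 of 10 (30%) past 4-fold. The miR482 5p arm made up 9.29% of its family in fruit, against 0.379% in stem, 0.196% in flower and 0.224% in leaf. The miR166 5p arm made up 1.76%, against 0.128%, 0.0587% and 0.235% in stem, flower and leaf. The miR160 3p arm made up 40.7% in fruit, against 2.92% in stem, 0.135% in flower and 0.49% in leaf. The miR396 3p arm made up 32.5% in fruit, against 4.18%, 0.83% and 8.80% in stem, flower and leaf, and the miR162 5p arm 38.4%, against 5.48%, 12% and 6.90%. The exception below was the 5p arm of miR398, at 0.376% in fruit, against 14.3% in stem, 46.3% in flower and 17.3% in leaf. In C. chinense 9 of these families could be measured the same way, and in 4 the second arm took its largest part in fruit.

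**Figure D4:**
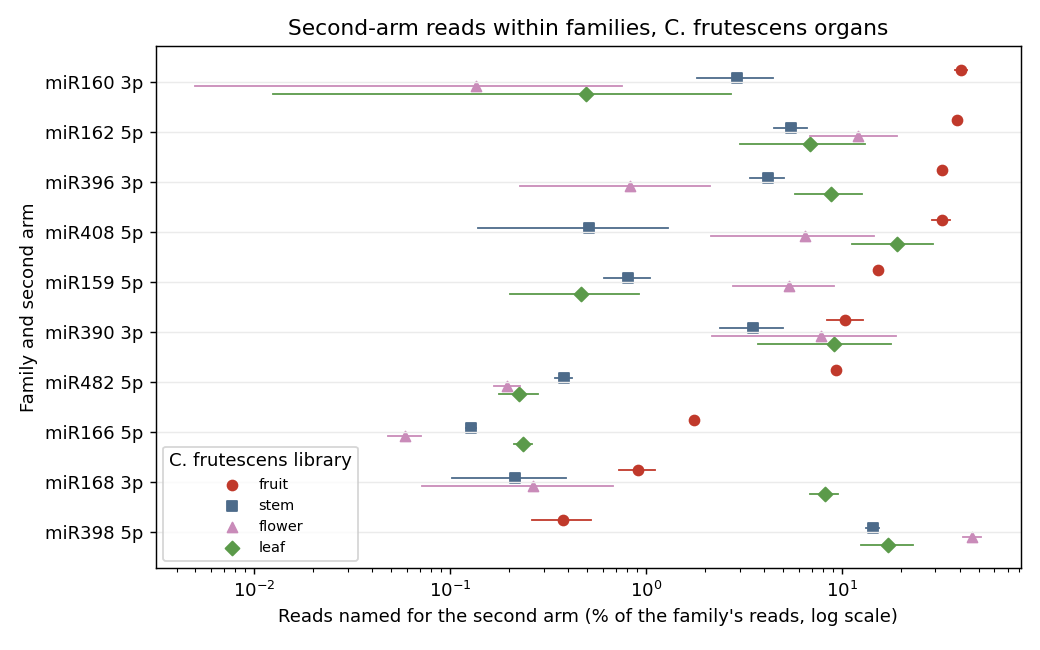
Reads named for the second arm as a share of the family's reads (%, log axis) in C. frutescens fruit, stem, flower and leaf, for the 10 families with 50 or more reads in each, with 95% counting intervals. The fruit point lies to the right of the other organs in 8 families, is inside their range for miR168 and far to the left for miR398.

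The paired arms with most fruit reads are shown because their letters bear on the arm names. Capitals again mark the shared core.
pta-miR396 fruit: UUCCACAGCUUUCUUGAACUUcuu
ath-miR396a-3p fruit: uuuugggGUUCAAUAAAGCUGUGGGAAG
ghr-miR482a fruit: auugUCUUUCCUACUCCUCCCAUACC
sly-miR482e-5p fruit: UGUGGGUGGGGUGGAAAGAUUuga
ath-miR162b-3p fruit: cguggUCGAUAAACCUCUGCAUCCAG
bra-miR162-5p fruit: ucGGAGGCAGCGGUUcaucgauc
gma-miR166c-5p fruit: aGGGGAAUGUUGUCUGGCUCGAGG
Laid antiparallel without a gap and with G-U pairs allowed, the miR396 cores pair at 18 of 19 positions, the miR482 arms at 16 of 20, the miR162 arms at 17 of 21 and the miR166 arms at 18 of 21. For miR393 the main entries of both arms pair at 15 of 17 positions.

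With all second-arm entries left out, an alternative chosen after seeing the data, 15 families were higher in fruit, 14 of them among the 16. miR170 and miR393 were the losses and miR399 was added. miR393 then had 35 reads in fruit, 5 in stem, 2 in flower and 7 in leaf, a log2 fold of 0.49 over leaf, so that its call rests on the 3p arm, of which gma-miR393c-3p alone had 8277 fruit reads. The remaining miR396 reads numbered 30139 in fruit, 2179 in stem, 478 in flower and 259 in leaf, a log2 fold of 4.16 over stem. Those of miR162 numbered 16045, 1726, 110 and 108, a log2 fold of 3.59. Whether the mix of arms has any part in the other calls was not tested.

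By the arm-named reads alone, 2 of 8 families with 50 or more such reads in each organ (25%) had a 3p share 30 points or more outside the range of the other organs. The 3p share of miR482 was 3.61% in fruit, against 35.9% in stem, 36.0% in flower and 39.7% in leaf, 32.3 points under the lowest of these. These shares cover a small part of miR482, 12296 of 127624 reads in fruit, 593 of 100315 in stem, 261 of 85343 in flower and 126 of 33919 in leaf. Its main fruit entry, ghr-miR482a, has no arm in its name and is left out. The 3p share of miR398 was 95.5% in fruit, against 29.1% in stem, 19.4% in flower and 51.3% in leaf, 44.2 points over the highest. The 5p reads of miR398 numbered 35 in fruit, 512 in stem, 183 in flower and 38 in leaf. Of these zma-miR398b-5p, with a printed sequence of 35 or 36 nt, held 24 in fruit, 63 in stem, 162 in flower and 38 in leaf.

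Fruit also listed more names. The fruit library listed 1008 families, against 530 in stem, 302 in flower and 258 in leaf. At the depth of the leaf library, 246508 reads, the expected numbers were 457 in fruit, 204 in stem, 221 in flower and 258 in leaf. Counting families with at least 2 reads at that depth gave 168 in fruit, 81.1 in stem, 86.9 in flower and 99 in leaf. Of the 1176 families listed in any C. frutescens organ, 532 were listed in fruit alone, 374 of these with 1 read, and together they held 895 reads. The most abundant were miR5150 with 25 reads, miR8771 with 15 and miR828 with 11, and 201 of the 532 were listed in some C. chinense library. The count of 532 was not brought to equal depth, and no matching count is given for the other organs.

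Predicted miRNAs, entries with a Cap-m name that are kept apart from the conserved ones, were listed 1230 times in fruit, 264 times in stem, 137 times in flower and 89 times in leaf. They held 15250 reads in fruit, 2031 in stem, 2032 in flower and 674 in leaf, which is 1.63 per 100 conserved reads in fruit, against 0.179, 0.492 and 0.273 in stem, flower and leaf. Sequences of 24 nt, the usual length of siRNAs that guide DNA methylation, made up 45.4% of the fruit entries (Clopper-Pearson 95% interval 42.6 to 48.3), against 28.8% in stem (23.4 to 34.7), 23.4% in flower (16.6 to 31.3) and 24.7% in leaf (16.2 to 35.0). Sequences of 21 nt, the usual length of plant miRNAs, made up 2.28% in fruit (1.52 to 3.27), against 3.41% in stem, 3.65% in flower and 13.5% in leaf. A first U stood on 31.2% of fruit entries. Both arms were listed for 87 of 1143 fruit precursors (7.61%).

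**Figure D5:**
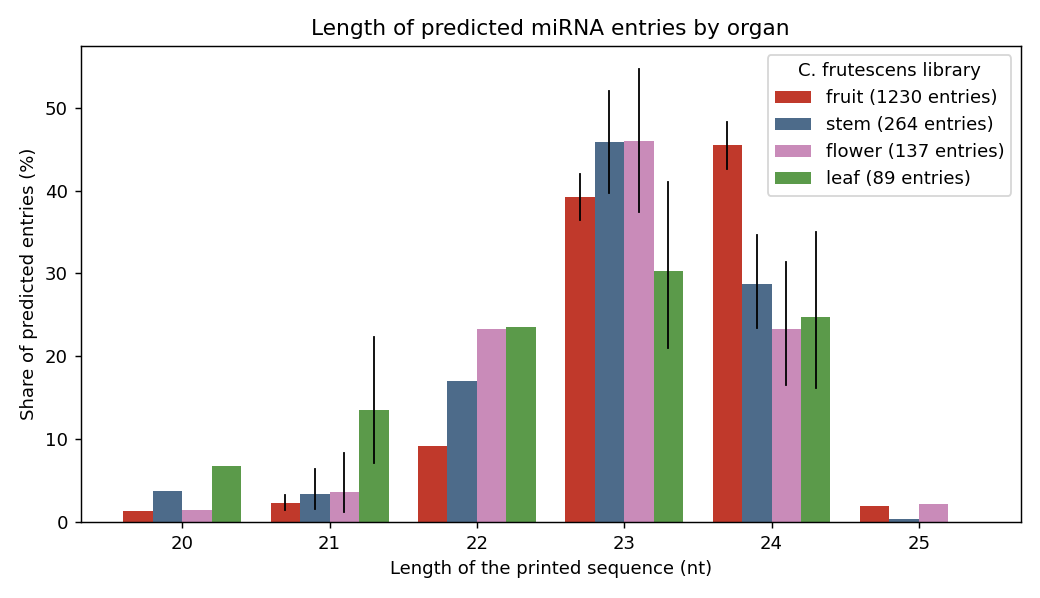
Length of the printed sequence (nt) of predicted miRNA entries as a share of the entries (%) in C. frutescens fruit, stem, flower and leaf, with 95% counting intervals at 21, 23 and 24 nt. At 24 nt the fruit bar (45.4%) stands above the other organs (23.4% to 28.8%), and at 22 nt it is the lowest (9.19%).

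Few predicted sequences recurred. Names are given anew in each library, so they were matched by sequence, and 21 of 1227 distinct fruit sequences (1.71%) were found unchanged in another C. frutescens organ, 16 in stem, 5 in flower and 4 in leaf. They held 3.78% of the predicted fruit reads. The sequences shared with fruit were 6.11% of the 262 of stem, 3.68% of the 136 of flower and 4.49% of the 89 of leaf. These shorter lists limit how many of the 1227 could recur. Allowing 1 sequence to lie within the other gave 29 fruit sequences. Of the 162 fruit sequences with 10 or more reads, 10 recurred exactly. C. chinense fruit held 4 of the fruit sequences. The leading sequence, Cap-m0550-3p, had 4331 reads, 28.4% of the predicted fruit reads, and a form within it had 1027 reads in flower of the same species and 3010 in C. chinense flower. Its closest conserved entry was sly-miR482b, identical at 18 of 23 aligned bases. Its partner arm, Cap-m0550-5p, was closest to sly-miR482e-5p, identical at 17 of 21, and had 141 reads in fruit and 130 in flower. Whether this precursor belongs to the miR482 family was not tested. The arms of this leading precursor and the next 2 sequences by reads are shown.
Cap-m0550-3p: aucuugccgauuccguccauaccgcu
Cap-m0550-5p: uggugugggcggggcgggaagaua
Cap-m0717-3p: uucgacauuccagacauguuggu
Cap-m0479-5p: uugggucgaaguuuuggaggccuu
Cap-m0717-3p had 1001 reads, Cap-m0479-5p had 725, Cap-m0043-3p had 631 and Cap-m0416-5p had 428, and none of these 4 was listed in another organ of either species. Among sequences shared with stem, Cap-m1121-3p had 152 reads in fruit and 7 in stem, Cap-m0885-5p had 45 and 4, Cap-m0133-3p had 38 and 3, and Cap-m0564-5p had 34 and 3.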

How the data were processed

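NucleoSpin-purified RNA was made, per the labels' protocols, into TruSeq small RNA libraries and sequenced on the Genome Analyser II of Illumina. The deposited values are raw counts of reads for each conserved and each predicted miRNA entry of a library, with 1 sequence per entry, per the file headers. Not given in the sources used here: adapter trimming, aligner, miRNA database release, allowed mismatches and predictor.

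Counts were summed by the miR number of the entry and divided by the listed conserved reads (Python 3.11.15, pandas 2.3.3). The stated rule used 4-fold, 50 reads and a floor of 3 reads for a library at 0. Ratios have exact conditional binomial 95% intervals and shares Clopper-Pearson 95% intervals (scipy 1.17.1). Reads carry no molecular identifiers. The TMM scaling of edgeR 4.0.16 and the median-of-ratios factors of DESeq2 1.42.0 (R 4.3.3) were alternatives, and no test of either was run. The counting rule was tested on simulated counts.

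Families named are the 10 with the highest fruit share, all families apart in fruit, the 3 nearest to 4-fold on each side, those shifted in arm, the most abundant members of each functional list, and the leading and shared predicted sequences. The members and lists were chosen with earlier results of these data known. Some families between these, such as miR2118, miR6025 and miR164, were named after their values were seen.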

Additional observations from a re-analysis of the deposited data

Results flagged for a closer look

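miR2916 stood out because the fruit moved opposite ways in the species. In C. frutescens fruit its share was above every other organ, with 1816 reads in fruit, 2 in stem, 1 in flower and 1 in leaf. In C. chinense fruit it was below every other organ, with 1 read in fruit, 10490 in stem, 2 in flower and 9 in leaf, and its fruit share was 0.88 of that of the lowest of these, flower. That C. chinense value rests on 1 fruit read against 2 flower reads, and the difference between the species was not tested.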

How the results depend on the processing

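The count of families higher in fruit, 16, stayed between 12 and 22 under 15 of 17 alternatives. With entries of 20 to 24 bases only it was 6, of which 5 were among the 16 (the count lower was 2, none among the 3), and with distinct printed sequences as the unit it was 81 of 234. The count lower in fruit, 3, was 5 with TMM scaling, 1 at 8-fold, 1 with entries named for nightshades and 11 against the pooled other organs, and it ran from 4 to 7 when stem, flower or leaf was left out in turn. Without stem it was 7, without flower 5, and miR8021 was lost in both because it then had under 50 reads. miR6026 was lost without miR166 and under both other scalings. The median shift of all 65 families, 0.78 (log2), was 0.57 with TMM and 0.61 with median-of-ratios. Families listed in fruit at equal depth numbered 168 at 2 or more reads, against 703 when entries were counted. Arm shifts numbered 1 with entries of 20 to 24 bases. Predicted fruit sequences numbered 162 at 10 or more reads. In C. chinense fruit, 3 families were higher without miR166, an alternative added after seeing the data. No called family turned its direction in 132 recalculated values over 7 settings. Leaving out an organ cannot turn a call. Changes of scaling or of the total move all families of a library by a common factor, too small here to turn a 4-fold call. Neither set of values is therefore a check of direction, and only the setting without second-arm entries could have turned a call. The setting of 20 to 24 bases, under which most calls were lost, was not among the 7. The causes were not tested. No paired analysis was possible because each organ is 1 library of pooled RNA. Depth limits families with few reads in flower and leaf, where 1 read moves a ratio several-fold.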
